A study of Mus musculus with 6 samples.

Results

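The genes described here encode the Toll-like receptors of the cell surface, their lipopolysaccharide co-receptors and the adaptor proteins that carry their signal. They were chosen by symbol as Tlr1, Tlr2, Tlr4, Tlr6, Cd14, Ly96, Myd88, Tirap, Ticam1 and Ticam2, which gave 10 of the 16108 genes in the deposited expression table. All 10 passed the filter on low values and were tested. RNA had been sequenced from RAW264.7, an established line of mouse macrophage-like cells, seeded on acoustic devices and left overnight to attach. In the acoustics-on group (3 libraries, called the on libraries) the devices ran for 48 h at 5 kHz and 18 V peak to peak. In the acoustics-off group (3 libraries, the off libraries) cells stayed on the same kind of device for 48 h with no acoustics. A petri dish group named in the design was not analysed here. The labels do not say whether libraries came from separate cultures. A p-value given here therefore sets a difference only against the scatter between these libraries, and that scatter may be technical.

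Toll-like receptors recognise microbial products through leucine-rich repeats outside the cell and signal through a TIR domain inside it. TLR2 pairs with TLR1 or TLR6 and recognises bacterial lipoproteins. TLR4, with its partner MD-2 (encoded by Ly96) and with CD14, recognises lipopolysaccharide. TIRAP brings MyD88 to TLR2 and TLR4 at the plasma membrane, and MyD88 starts the cascade towards NF-kB and inflammatory cytokines. TRAM (encoded by Ticam2) links TLR4 to TRIF (encoded by Ticam1), which leads to type I interferon.

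None of the 10 genes passed the test of acoustics on against off (limma on log2(FPKM + 1), Benjamini-Hochberg adjusted p under 0.05 over 11664 tested genes), so 0 were called higher and 0 lower. Over all tested genes 2.07% were called, 1.50% as higher and 0.574% as lower. At an unadjusted p under 0.05 limma gave 3 of the 10 genes and 19.7% of all tested genes. Those 3 were Tlr1, Tirap and Ticam2, and they were also the 3 genes whose every on library was below every off library. Separate groups were common in these data. They were seen in 34.8% of all tested genes and, with the on libraries lower, in 17.7%, so that 3 of 10 was not far from the background. The other 7 genes had overlapping groups. The median log2 difference (on minus off) was -0.25 over the 10 genes and -0.03 over all tested genes.

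**Figure D1:**
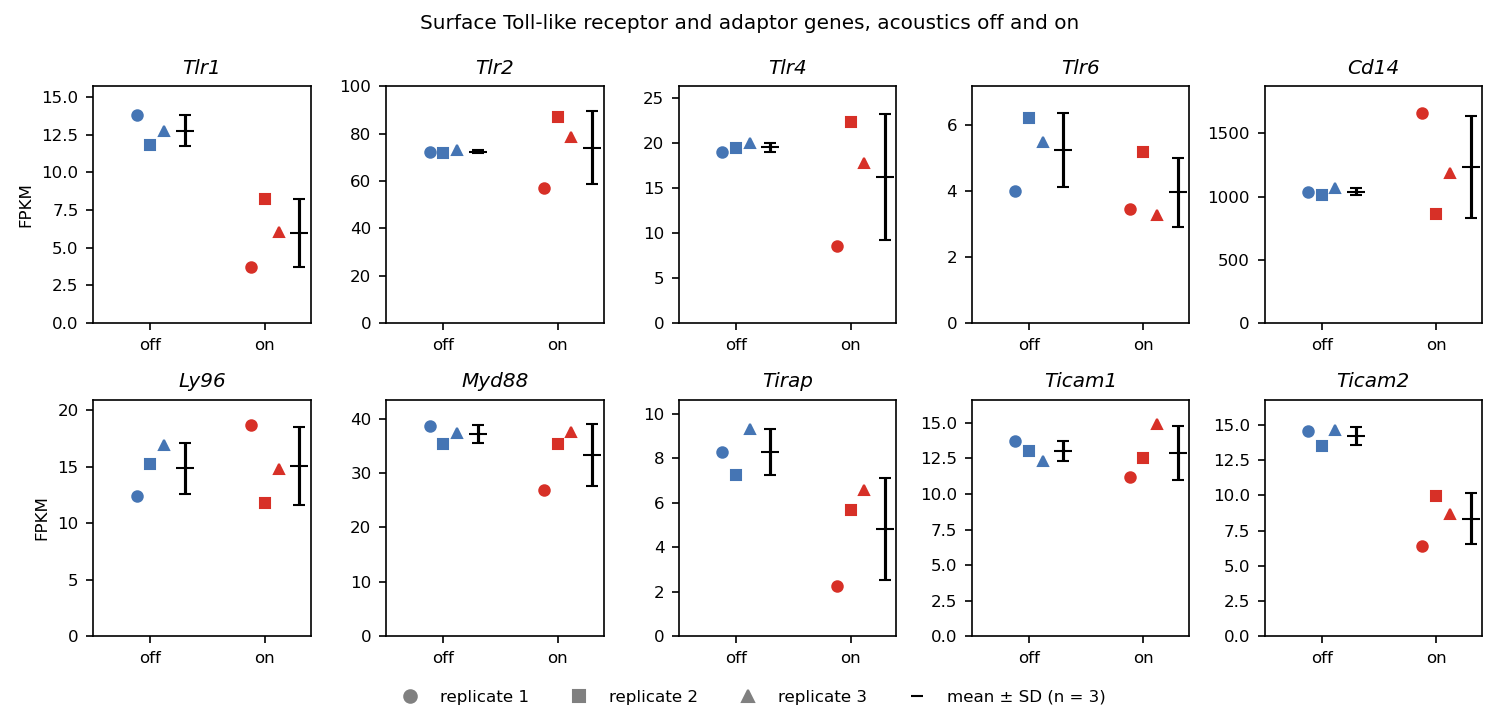
FPKM of each of the 10 genes (vertical axes, linear and starting at 0) in the off (blue) and on (red) libraries; symbols mark replicates 1 to 3 and black bars the mean and SD (n = 3). Tlr1, Tirap and Ticam2 show separate groups, and the other 7 genes overlap.

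The libraries differed in ways that touch these values. On replicate 1 stood apart on the first principal component (64.4% of the variance), at 58.8. The other on libraries lay at 2.54 and 4.66, and the off libraries between -23.5 and -19.8. Over 10462 protein-coding genes, which are not independent replicates, the rank correlation of transcript length with the difference from the off mean was -0.55, -0.44 and 0.03 in on replicates 1, 2 and 3. The part of this trend in the results was examined by dividing it out (the length and GC correction). Of the 10 genes, 7 had their lowest on value in replicate 1. The coefficient of variation was larger among the on than among the off libraries for 10 of 10 genes, with medians of 24.6% and 4.93%. Over all tested genes these medians were 23.5% and 6.07%. The authors' mean normalised counts ran from 254.4 (Ly96) to 70755 (Cd14), for which counting error corresponds to a coefficient of variation of 6.27% or less.

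Markers of macrophages were present throughout. All 8 were in the table and 0 passed the limma test. The authors' deposited table called Csf1r, named after its values were seen, lower (log2 fold change -0.82, adjusted p = 0.0044). It called 2.49% of its genes lower and did not call the other macrophage markers. The summed level of the 8 markers was 27872 to 30111 FPKM in the off libraries and 19714 to 26605 FPKM in the on libraries. A single gene, the lysozyme gene Lyz2, made up 82.97% to 87.2% of that sum. Without it the sum was 3921 to 4094 FPKM in the off libraries and 3358 to 3542 FPKM in the on libraries. Of the 8 markers 6 were lower in all on libraries, against 17.7% of all tested genes. The other 2, Fcgr1 and Cd14 (itself a co-receptor described here), overlapped. Markers of other cell types were low or absent from the table. The table held 3 of 5 dendritic cell, 1 of 5 neutrophil, 1 of 5 lymphocyte, 4 of 5 fibroblast and 1 of 4 epithelial markers, and the highest single value among them was 3.73 FPKM, for the neutrophil marker Csf3r. The part of the lower macrophage marker sum in the results was not tested. In bulk RNA, fewer cells expressing a gene and less RNA per cell cannot be told apart.

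Levels are given in FPKM, which divides by transcript length, so that genes can be set side by side. In the off libraries Cd14 was the most abundant at 1037 ± 27.7 FPKM (SD, n = 3), followed by Tlr2, Myd88 and Tlr4, each separate from the next. Ly96, Ticam2, Ticam1 and Tlr1 followed at means of 14.8, 14.2, 13.05 and 12.8 FPKM, and each overlapped its neighbour in this order. Tirap and Tlr6 were lowest at 8.28 and 5.22 FPKM and separate from each other. In the on libraries Cd14, Tlr2 and Myd88 again held ranks 1 to 3 with separate ranges. Below them neighbours overlapped, except for a gap between Ticam1 and Ticam2.

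Among the 4 surface receptor genes, Tlr1 had the largest difference. It encodes the partner with which TLR2 recognises triacylated lipoproteins. Its level was 13.8, 11.8 and 12.7 FPKM in off replicates 1, 2 and 3, and 3.72, 8.23 and 6.03 FPKM in on replicates 1, 2 and 3. Every on library was below every off library, and on replicate 1 was the lowest. The means were 12.8 ± 1.00 and 6.00 ± 2.26 FPKM (SD, n = 3 each), the second being 46.9% of the first. The log2 difference was -1.03 (SE 0.24, 95% interval -1.60 to -0.45) and did not pass (limma, adjusted p = 0.092).

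The call for Tlr1 turned on the processing and on single libraries. In the authors' deposited table Tlr1 was lower with acoustics on (log2 fold change -1.09, standard error 0.30, adjusted p = 0.0064). That table called 7.56% of its 14522 genes with an adjusted p, 2.49% as lower, and 2 of the 10 genes described here, Tlr1 and Ticam2. With the length and GC correction Tlr1 was at -1.06 and passed (limma, adjusted p = 0.038), where 3.08% of genes were called lower. Leaving out on replicate 1 gave -0.77 (limma, adjusted p = 0.028; 3.11% of genes lower), and leaving out on replicate 2 gave -1.26 (limma, adjusted p = 0.048; 1.17% lower). Leaving out on replicate 3 gave -1.06, which did not pass (limma, adjusted p = 0.115). Under library weights (6.72% of genes lower), and under the correction with on replicate 1 left out (6.86% lower), Tlr1 passed as well. With any single off library left out the direction held, and the limma adjusted p was 0.28 to 0.38.

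Tlr6, the alternative partner of TLR2, recognises diacylated lipoproteins. Its level was 4.00, 6.19 and 5.48 FPKM in the off libraries and 3.46, 5.15 and 3.26 FPKM in the on libraries. The groups overlapped, since off replicate 1 was below on replicate 2. The log2 difference of -0.33 (SE 0.21, 95% interval -0.82 to 0.16) did not pass (limma, adjusted p = 0.38).

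Tlr1 and Tlr6 are neighbours on mouse chromosome 5. In GENCODE M21 (GRCm38), Tlr1 lies at chr5:64924679-64933563 and Tlr6 at chr5:64952031-64960097, both on the minus strand and 18467 bases apart. Their transcripts share long identical stretches. Of the 31-base words of the longest Tlr1 transcript, 20.1% also occurred in Tlr6, and 16.9% of those of Tlr6 occurred in another gene, nearly all in Tlr1. Reads from such stretches fit both genes, so how they were divided is uncertain. The longest identical run was 229 bases of coding sequence. It is printed with 20 bases on either side, 5′ to 3′ along the transcript, because it shows where reads of the 2 genes cannot be separated; capitals mark the bases at which they differ. The run comes from the GENCODE M21 transcripts, with its flanks at chr5:64925517-64925785 for Tlr1 and chr5:64953808-64954076 for Tlr6.
Tlr1: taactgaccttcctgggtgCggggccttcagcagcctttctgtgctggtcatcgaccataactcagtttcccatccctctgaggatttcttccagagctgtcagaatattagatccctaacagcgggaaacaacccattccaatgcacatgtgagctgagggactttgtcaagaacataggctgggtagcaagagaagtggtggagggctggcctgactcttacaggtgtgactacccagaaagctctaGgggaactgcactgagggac
Tlr6: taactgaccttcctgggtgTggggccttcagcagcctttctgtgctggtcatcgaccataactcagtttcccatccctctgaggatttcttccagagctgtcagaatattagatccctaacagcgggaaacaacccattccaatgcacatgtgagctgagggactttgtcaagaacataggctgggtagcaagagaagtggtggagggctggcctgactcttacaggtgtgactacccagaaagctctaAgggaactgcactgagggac

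The sum of Tlr1 and Tlr6 is less open to that division. It was 17.8, 18.0 and 18.2 FPKM in the off libraries and 7.18, 13.4 and 9.29 FPKM in the on libraries. The off libraries were close to each other, and every on library was below them. The ratio of Tlr1 to Tlr6 was 3.46, 1.91 and 2.32 in the off libraries and 1.08, 1.60 and 1.85 in the on libraries, again without overlap. This sum and the within-library ratios given for other pairs of genes are descriptions and were not tested. They use FPKM as deposited, without the length and GC correction, and how often other gene pairs separate was not counted. In the ratios of Tlr4 to Tlr2, Ticam2 to Ticam1 and Tirap to Myd88 the first gene has the longer transcript. The lengths are 4077 against 3014, 4204 against 2992 and 4589 against 2458 bases. The part of the length trend in these ratios was not tested.

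Tlr2, the subunit that both partners share, had nearly equal means. It stood at 72.4, 71.8 and 73.2 FPKM in the off libraries and 57.2, 86.9 and 78.4 FPKM in the on libraries. On replicate 1 was below all off libraries, and on replicates 2 and 3 were above them. The log2 difference was 0.01 (SE 0.17; limma, adjusted p = 0.97), with a 95% interval of -0.39 to 0.42. Relative to Tlr2 in the same library, Tlr1 was at 0.191, 0.165 and 0.174 in the off libraries and 0.0651, 0.0948 and 0.0769 in the on libraries. Those ratios did not overlap, whereas the ratio of Tlr6 to Tlr2 did.

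The promoter of Tlr1 is shown because Tlr1 is the surface receptor whose groups were separate. The window runs from 250 bases before to 50 bases after a RefSeq transcript start, at chr5:64933509-64933808 (GRCm38.p6, minus strand, written 5′ to 3′). Such windows were used for 6 of the 10 genes (Tlr1, Tlr2, Tlr6, Myd88, Tirap and Ticam1). Both strands were searched for GAGGAAGT, a word bound by the myeloid factor PU.1, which 3.20% of all 32851 windows hold. They were also searched for the interferon-stimulated response element (GAAA, any 2 bases, GAAA; 3.44% of windows) and for the AP-1 word TGANTCA (7.81%). These 3 words do not overlap in any of the 6 windows. The Tlr1 window holds the PU.1 word, in capitals, from position -23, and the other 5 windows do not hold it.
Tlr1: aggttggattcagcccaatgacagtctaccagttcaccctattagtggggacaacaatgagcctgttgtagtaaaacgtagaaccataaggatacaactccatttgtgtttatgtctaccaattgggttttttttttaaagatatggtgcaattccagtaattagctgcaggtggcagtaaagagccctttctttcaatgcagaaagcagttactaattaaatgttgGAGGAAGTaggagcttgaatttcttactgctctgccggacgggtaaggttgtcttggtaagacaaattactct

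Tlr4 encodes the lipopolysaccharide receptor, and its on libraries lay on both sides of the off range. It stood at 19.0, 19.5 and 20.01 FPKM in the off libraries and 8.53, 22.3 and 17.8 FPKM in the on libraries. On replicate 1 was far below the off range, on replicate 3 slightly below it and on replicate 2 above it. The log2 difference was -0.35 (SE 0.31, 95% interval -1.09 to 0.39; limma, adjusted p = 0.52), and without on replicate 1 it was 0.03 (limma, adjusted p = 0.90). On replicate 1 alone lay at -1.11 from the off mean on the log2 scale, and at -0.80 with the length and GC correction. The ratio of Tlr4 to Tlr2 was 0.263, 0.272 and 0.273 in the off libraries and 0.149, 0.256 and 0.227 in the on libraries, with no overlap. With the length and GC correction, on replicates 1, 2 and 3 lay at -0.80, 0.15 and -0.18 from the off mean for Tlr4. For Tlr2 they lay at -0.29, 0.19 and 0.087, so the 2 genes were close in on replicate 2.

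The co-receptor genes of the lipopolysaccharide complex showed no separation. Cd14 encodes the surface protein that hands lipopolysaccharide to MD-2 and TLR4. It stood at 1034, 1010 and 1066 FPKM in the off libraries and 1664, 860.1 and 1185 FPKM in the on libraries. On replicate 1 was the highest library and on replicate 2 the lowest. Its log2 difference was 0.20 (SE 0.25, 95% interval -0.39 to 0.79; limma, adjusted p = 0.64) and was -0.04 with the length and GC correction.

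Ly96 encodes MD-2, the secreted protein that binds lipopolysaccharide beside TLR4. Its values were 12.4, 15.3 and 16.9 FPKM in the off libraries and 18.7, 11.8 and 14.8 FPKM in the on libraries. The groups overlapped, and both the highest and the lowest library were on libraries. A log2 difference of 0.01 resulted (SE 0.20, 95% interval -0.45 to 0.47; limma, adjusted p = 0.98). With the length and GC correction it was -0.31 (limma, adjusted p = 0.32), so the sign for Cd14 and Ly96 depended on that step. The transcript of Ly96, at 666 bases, is the shortest of the 10. The ratio of Ly96 to Tlr4 was 2.19 in on replicate 1 and 0.529 to 0.843 in the other 5 libraries.

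**Figure D2:**
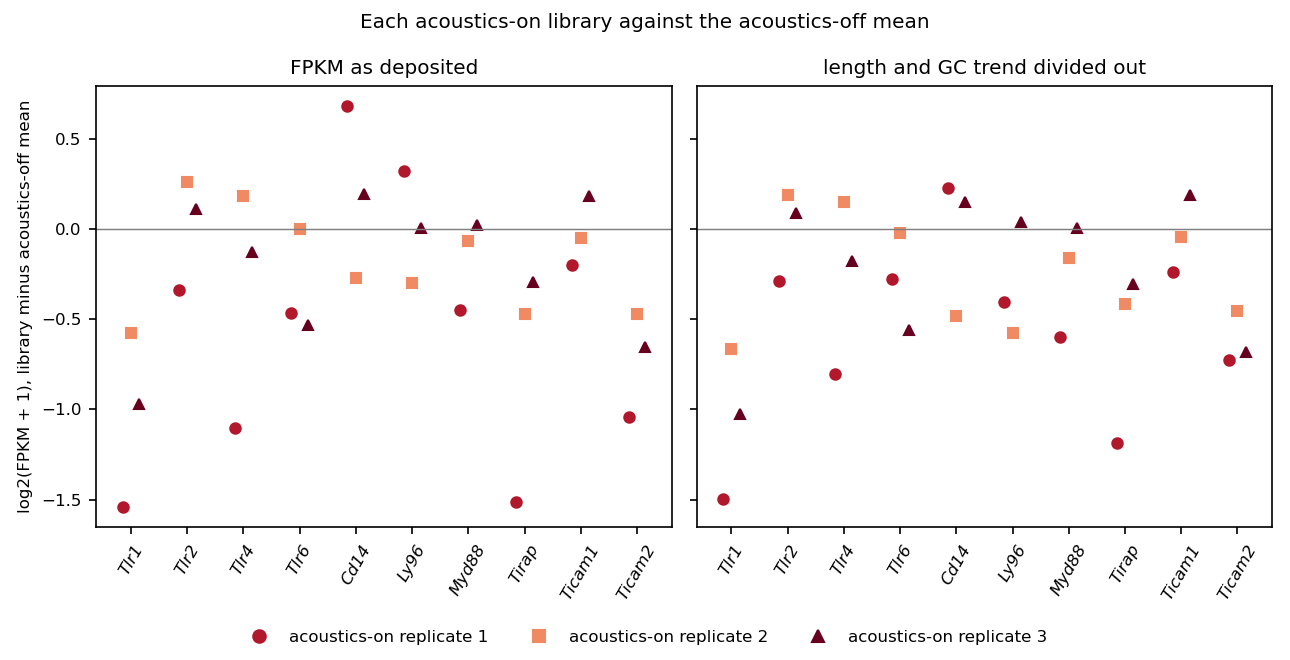
Difference of each on library from the off mean (vertical axis, log2(FPKM + 1)) for the 10 genes, as deposited (left) and with the length and GC correction (right). Replicate 1 is lowest for Tlr1, Tlr2, Tlr4, Myd88, Tirap, Ticam1 and Ticam2 in both panels and highest for Cd14 in both. Its Ly96 value moves from 0.32 to -0.40.

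The adaptors of the TRIF arm differed from each other. Ticam2 encodes TRAM, the adaptor that joins TLR4 to TRIF. It stood at 14.5, 13.5 and 14.6 FPKM in the off libraries and 6.38, 9.96 and 8.66 FPKM in the on libraries. All on libraries were below all off libraries, and the means were 14.2 ± 0.62 and 8.33 ± 1.81 FPKM (SD, n = 3 each). The log2 difference of -0.72 (SE 0.17, 95% interval -1.12 to -0.32) had the smallest unadjusted p of the 10 genes and did not pass (limma, adjusted p = 0.090). In the authors' deposited table it was lower (log2 fold change -0.77, standard error 0.21, adjusted p = 0.0069). Once corrected for length and GC, Ticam2 passed (-0.62; limma, adjusted p = 0.026), as it did without on replicate 1 (-0.56; limma, adjusted p = 0.024). It passed under library weights too, and not without any other single library (limma, adjusted p from 0.064 to 0.39).

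Ticam2 shares transcript sequence with Tmed7, a gene for a protein of the early secretory pathway. Of the 31-base words of the longest Ticam2 transcript, 19.5% also occurred in another gene, nearly all in Tmed7. Tmed7 stood at 77.7, 74.8 and 76.2 FPKM in the off libraries and 35.8, 74.7 and 74.7 FPKM in the on libraries. It was low in on replicate 1 and near the off level in on replicates 2 and 3, where Ticam2 was below its own off range.

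Ticam1 encodes TRIF and had nearly equal means. It stood at 13.8, 13.0 and 12.3 FPKM in the off libraries and 11.2, 12.6 and 14.9 FPKM in the on libraries. The on values lay below, within and above the off range. The log2 difference was -0.02 (SE 0.14, 95% interval -0.35 to 0.31; limma, adjusted p = 0.93). The ratio of Ticam2 to Ticam1 was 1.06, 1.04 and 1.18 in the off libraries and 0.569, 0.792 and 0.580 in the on libraries, with no overlap.

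In the MyD88 arm, Tirap encodes the sorting adaptor that recruits MyD88. It stood at 8.28, 7.25 and 9.31 FPKM in the off libraries and 2.24, 5.67 and 6.56 FPKM in the on libraries. The groups did not overlap, and on replicate 1 was by far the lowest. Its log2 difference of -0.76 (SE 0.32, 95% interval -1.50 to -0.01) did not pass (limma, adjusted p = 0.25). Without on replicate 1 it was -0.38 (limma, adjusted p = 0.12), and it passed at none of the 17 alternative settings. The longest Tirap transcript, at 4589 bases, is the longest of the 10, and 13.4% of its 31-base words also occurred in another gene.

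Myd88 encodes the core adaptor, used by nearly all Toll-like receptors and by the interleukin-1 receptor family. It stood at 38.6, 35.3 and 37.3 FPKM in the off libraries and 26.9, 35.4 and 37.6 FPKM in the on libraries. On replicate 1 was below the off range, and the other on libraries were within it. The log2 difference was -0.16 (SE 0.15, 95% interval -0.52 to 0.19; limma, adjusted p = 0.53), and -0.02 without on replicate 1. The ratio of Tirap to Myd88 was 0.215, 0.205 and 0.249 in the off libraries and 0.0833, 0.160 and 0.174 in the on libraries. These ratios did not overlap. Of the 31-base words of the longest Myd88 transcript, 7.99% also occurred in Acaa1a.

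The Myd88 window is shown because it is the only window of the 6 with the interferon-stimulated response element letters, in capitals, from position -40. It lies at chr9:119339969-119340268 (RefSeq, GRCm38.p6, minus strand, written 5′ to 3′). A match of letters describes the window only. The AP-1 word was in none of the 6 windows.
Myd88: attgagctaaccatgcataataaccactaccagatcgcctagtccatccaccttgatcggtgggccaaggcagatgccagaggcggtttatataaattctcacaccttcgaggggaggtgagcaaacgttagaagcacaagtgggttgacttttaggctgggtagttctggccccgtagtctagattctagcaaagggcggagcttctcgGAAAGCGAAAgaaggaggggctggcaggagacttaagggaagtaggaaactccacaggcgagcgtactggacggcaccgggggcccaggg

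**Figure D3:**
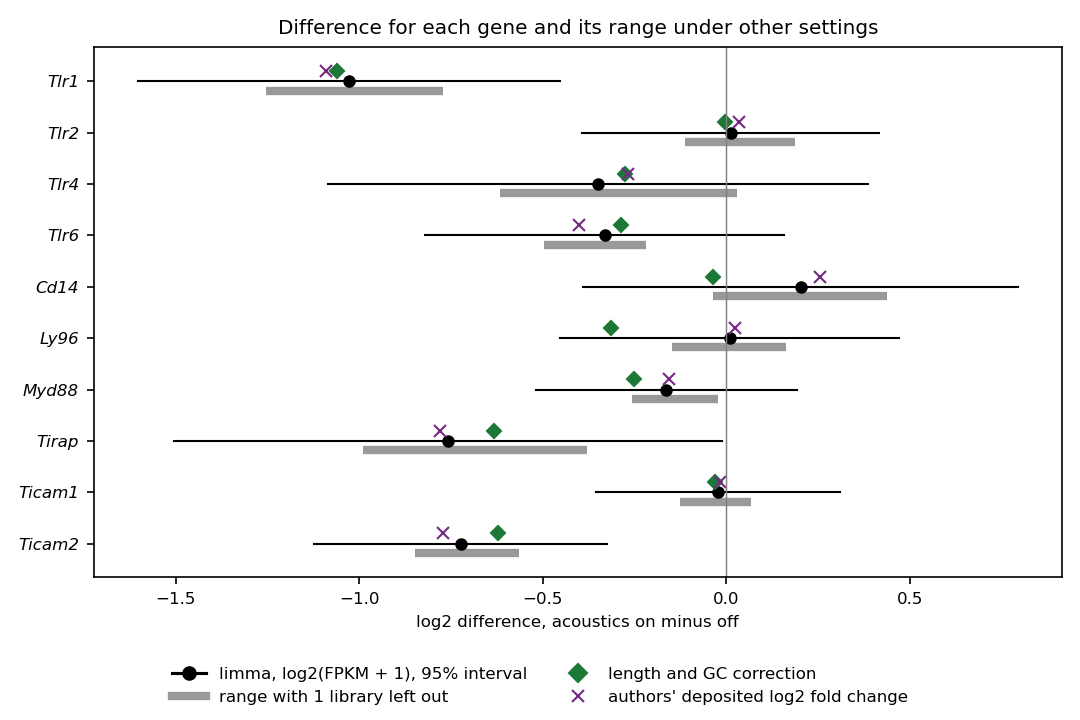
Log2 difference (on minus off, horizontal axis) of each gene with its 95% interval from limma on log2(FPKM + 1) (black), its range with 1 library left out (grey), its value with the length and GC correction (green) and the authors' deposited log2 fold change (purple). The intervals of Tlr1, Tirap and Ticam2 lie below 0, and the other 7 include 0.

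The genes most like Ticam2 over the 6 libraries were Klf11, Terf2ip and Zbtb12, with Pearson correlations of log2(FPKM + 1) of 0.999, 0.999 and 0.998. The 6 libraries share their groups and the position of on replicate 1, so this is a description. Among the receptor and adaptor genes Tlr1 was most like Ticam2 (0.995), followed by Tirap (0.905). Cd14 (-0.69) and Ly96 (-0.37) ran the other way.

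The rest of the pathway was read through 7 lists of 78 genes, of which 67 were tested. Of these, 7 rose and 0 fell. Over all tested genes 1.50% were called higher and 0.574% lower, so 0 lower calls was near that background. The 7 were 1 surface accessory gene and 6 output genes.

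Among the other Toll-like receptors and their chaperones (8 tested of 11 listed, median log2 difference -0.46) 0 rose and 0 fell, and 5 of 8 were lower in all on libraries, against 17.7% of all tested genes. Tlr7, an endosomal receptor for single-stranded RNA, stood at 55.4, 46.8 and 51.8 FPKM in the off libraries and 15.1, 34.1 and 26.0 FPKM in the on libraries (log2 difference -1.07, SE 0.27; limma, adjusted p = 0.11). Its order of on libraries was that of Tlr1, with replicate 1 lowest. Tlr8 averaged 19.5 ± 1.80 and 4.86 ± 4.26 FPKM in the off and on libraries (SD, n = 3). Tlr9, the receptor for unmethylated CpG DNA, averaged 9.62 ± 1.15 and 4.06 ± 2.23 FPKM. Cnpy3, a chaperone that Toll-like receptors need to fold, averaged 54.0 ± 2.47 and 39.8 ± 5.91 FPKM. The authors' deposited table called Tlr7 (adjusted p = 0.012) and Tlr9 (adjusted p = 0.0496) lower, as it did 2.49% of its genes. It did not call Tlr8 or Cnpy3. Without on replicate 1, Tlr7, Tlr8, Tlr9 and Cnpy3 passed, with log2 differences from -1.43 to -0.54 (limma, adjusted p from 0.021 to 0.026; 3.11% of all tested genes were lower at that setting). With the length and GC correction (3.08% of genes lower) Tlr7, Cnpy3 and Unc93b1 passed; Unc93b1, which carries receptors to the endosome, is named after its values were seen.

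Of the surface co-receptors and accessory proteins (8 tested of 10 listed, median -0.23) 1 rose and 0 fell. Cd36, a scavenger receptor that assists TLR2 with TLR6, stood at 232.5, 222.9 and 236.4 FPKM in the off libraries and 450.4, 378.7 and 380.6 FPKM in the on libraries. All on libraries were higher (log2 difference 0.80, SE 0.14; limma, adjusted p = 0.039). Cd36 did not pass with any single off library or with on replicate 2 or 3 left out (limma, adjusted p from 0.056 to 0.25). Nor did it pass with no filter beyond an FPKM above 0 (limma, adjusted p = 0.056). It did pass after the length and GC correction (limma, adjusted p = 0.032; 2.64% of genes higher) and under library weights (limma, adjusted p = 0.00070). The authors' deposited table called Cd36 higher (log2 fold change 0.81, adjusted p = 2.6e-06), as it did 5.08% of its genes. Rftn1, a lipid raft protein, averaged 66.9 ± 0.50 and 36.8 ± 10.3 FPKM with separate groups and did not pass (log2 difference -0.88; limma, adjusted p = 0.086). Rftn1 did pass without on replicate 1 (-0.70; limma, adjusted p = 0.032), without on replicate 2 (-1.08; limma, adjusted p = 0.024), after the length and GC correction (-0.77; limma, adjusted p = 0.039) and under library weights. The authors' deposited table called it lower (adjusted p = 0.0061). Itgam (-0.73) and Itgb2 (0.38), whose products pair as complement receptor 3, had log2 differences of opposite sign and did not pass. Itgb2 did pass as higher under library weights (limma, adjusted p = 0.0088). With the length and GC correction and on replicate 1 left out it passed as well (limma, adjusted p = 0.013). Itgam passed under neither.

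Of the kinases and ligases downstream of the adaptors, 0 passed in either arm in the main test. In the MyD88 arm (17 tested, median -0.23) 14 of 17 differences were negative and 6 of 17 genes were lower in all on libraries, against 53.0% and 17.7% of all tested genes. Irak4, the first kinase to join MyD88, averaged 18.1 ± 1.36 and 12.4 ± 3.10 FPKM (limma, adjusted p = 0.21). Traf6, a ubiquitin ligase of this arm, averaged 6.01 ± 0.30 and 4.31 ± 1.24 FPKM (limma, adjusted p = 0.28). Tab2 (log2 difference -0.48), an adaptor of the kinase TAK1, and Pik3ap1 (-0.67) did not pass. Pik3ap1 did pass as lower under library weights (limma, adjusted p = 0.045; 6.72% of genes lower). With the length and GC correction and on replicate 1 left out, 6.86% of genes were lower. There Pik3ap1 (limma, adjusted p = 0.042) and Irak4 (limma, adjusted p = 0.046) passed as lower. Without on replicate 1 the median of this arm was -0.06. In the TRIF arm (10 tested, median -0.01) 5 differences were negative and 5 positive. Ripk1, a kinase that binds TRIF, averaged 22.2 ± 0.35 and 17.6 ± 5.07 FPKM (limma, adjusted p = 0.37). Traf3, a ubiquitin ligase of this arm, averaged 10.5 ± 0.38 and 7.75 ± 3.85 FPKM (limma, adjusted p = 0.41). Tank (log2 difference 0.17) and Tradd (0.36) did not pass either.

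Of the inhibitors of the pathway (12 tested of 14 listed, median 0.01) 0 rose and 0 fell. Il1rl1, which encodes the interleukin-33 receptor ST2, averaged 2.91 ± 0.17 and 5.25 ± 1.07 FPKM with separate groups (log2 difference 0.67, SE 0.16; limma, adjusted p = 0.090). It passed without on replicate 1 (0.73; limma, adjusted p = 0.034; 4.34% of genes higher) and after the length and GC correction (0.83; limma, adjusted p = 0.022; 2.64% higher). The authors' deposited table called it higher (adjusted p = 0.0015), as it did 5.08% of its genes. Rnf216 (-0.48), Sigirr (0.48) and Nlrx1 (0.22), given as log2 differences, did not pass.

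Most calls lay among the output genes. The list names give an arm to each gene, and whether that arm acted on it here was not tested. Of the early cytokine genes of the MyD88 arm (6 tested of 9 listed, median 1.05) 1 rose and 0 fell, with 4 differences positive and 2 negative. Tnf, the gene that rose, stood at 24.3, 24.2 and 23.7 FPKM in the off libraries and 98.6, 53.7 and 102.3 FPKM in the on libraries (log2 difference 1.72, SE 0.25; limma, adjusted p = 0.022). It did not pass with any single off library or on replicate 3 left out (limma, adjusted p from 0.082 to 0.13). Ptgs2, the inducible cyclooxygenase, stood at 0.76, 0.62 and 0.46 FPKM in the off libraries and 3.34, 21.8 and 25.4 FPKM in the on libraries. Its groups were separate but its on libraries differed widely, and it did not pass (log2 difference 3.10, SE 0.64; limma, adjusted p = 0.069). With off replicate 3 under 0.5 FPKM, Ptgs2 reached the filter of 3 libraries only with on libraries. The call for Ptgs2 turned on the setting. It passed without on replicate 1 (3.93; limma, adjusted p = 0.00014), after the length and GC correction (3.16; limma, adjusted p = 0.029), with a pseudocount of 0.1 (4.14; limma, adjusted p = 0.044), with the replicate number as a block (limma, adjusted p = 0.047) and under library weights. It did not pass with any other single library left out (limma, adjusted p from 0.11 to 0.26). In the authors' deposited table its log2 fold change was 4.78 (adjusted p = 3.4e-14). Cxcl2 (log2 difference 1.34) and Nfkbia (0.76) were higher in all on libraries and did not pass. Without on replicate 1 Nfkbia passed (0.55; limma, adjusted p = 0.033), as it did under library weights, and Cxcl2 passed at none of the 17 alternatives. The authors' deposited table called both higher (adjusted p = 0.0010 for Cxcl2 and 0.012 for Nfkbia). The negative differences, given although their genes fall outside the naming rule, were those of Nfkbiz (-0.50; limma, adjusted p = 0.29), which was lower in all on libraries, and Il1b (-0.07; limma, adjusted p = 0.96), whose on libraries lay on both sides of the off range.

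Of the interferon output genes of the TRIF arm (6 tested of 7 listed, median 2.34) 5 rose and 0 fell. Isg15, a ubiquitin-like modifier, stood at 3.89, 3.47 and 3.06 FPKM in the off libraries and 25.6, 32.1 and 37.7 FPKM in the on libraries (log2 difference 2.86; limma, adjusted p = 0.0019). Irf7, a transcription factor of the interferon response, averaged 13.9 ± 1.52 and 69.6 ± 9.68 FPKM. Isg15 and Irf7 passed at every setting run. Ifit1, Rsad2 and Ccl5 rose by log2 differences of 1.32, 2.44 and 3.29. These sizes depend on the pseudocount for low genes, and the ratios of mean FPKM were close to each other at 15.1, 15.8 and 16.5. Ifit1 was at 0.17, 0.076 and 0.12 FPKM in the off libraries, so it passed the filter only through the on libraries, where it was high, and its count among the 5 carries that limit. With pseudocounts of 0.5 and 0.1 its log2 difference was 1.88 and 3.09. Rsad2, at 0.62, 0.35 and 0.60 FPKM in the off libraries, also reached the filter only with on libraries. So did Cxcl10, named after its values were seen, at 0.99, 0.14 and 0.39 FPKM in the off libraries. The call of Rsad2 and the list median of 2.34 carry the same limit. Rsad2 and Ccl5 did not pass with any library other than on replicate 1 left out (limma, adjusted p from 0.090 to 0.18), and Ccl5 did not pass with the length and GC correction (limma, adjusted p = 0.074). With no filter beyond an FPKM above 0, Rsad2 (limma, adjusted p = 0.078) and Ccl5 (limma, adjusted p = 0.080) did not pass either. Ifit1 did not pass with any single off library left out (limma, adjusted p of 0.13 in each case). Ifnb1, the interferon beta gene, had values of 2.72 and 2.57 FPKM in on replicates 2 and 3, was listed at 0 in the other 4 libraries, and fell under the filter. The cytokine gene Il6 had the same pattern, at 1.16 and 1.17 FPKM in on replicates 2 and 3. Both are named after their values were seen.

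**Figure D4:**
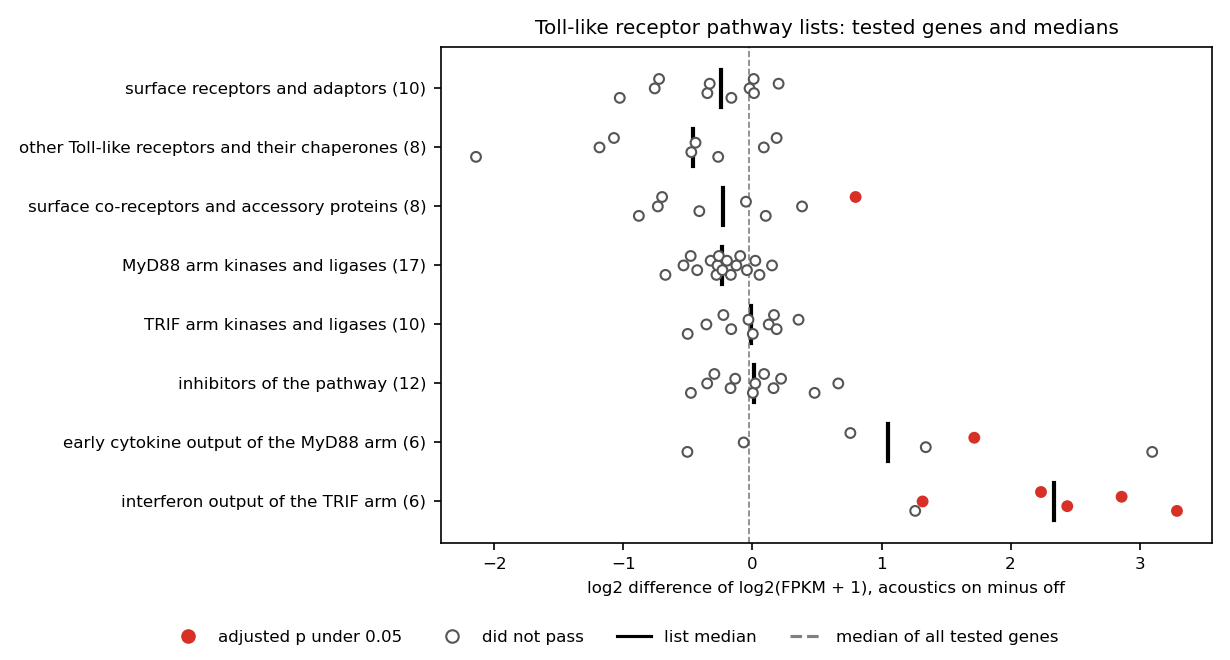
Log2 difference (on minus off, horizontal axis) of each tested gene among the receptors and adaptors and in 7 pathway lists; filled points passed the test (adjusted p under 0.05), black bars are list medians and the dashed line is the median of all tested genes. The 7 filled points lie in the accessory, cytokine and interferon lists.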

How the data were processed

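Libraries were made after ribosomal RNA depletion, per the labels' protocols, although another label says polyA RNA. The submitters' processing notes name STAR 2.7.11 and Salmon 1.4.0, with Trim Galore 0.6.8, DESeq2 1.38.2 and GRCm38, and the sources used here give no order or settings. The authors deposited FPKM per gene and library, already on a common median-ratio scale, with no counts. A second file holds the authors' own comparison as deposited: a mean of normalised counts (a signal over all libraries), log2 fold changes, a test score and p-values. Low FPKM values gave relative depths of 0.959 to 1.07. Only 57.9% to 67.1% of them came within 0.05 of a whole read, so reads were not recovered.

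Testing used limma 3.58.1 (R 4.3.3) on log2(FPKM + 1) for the 11664 genes that reached 0.5 FPKM in 3 or more libraries, with a trended robust prior and no term for replicate; Benjamini-Hochberg adjustment ran over all of them, at 0.05. This scale understates the change of low genes. The code was tested on simulated data. For the length and GC correction, a loess curve (span 0.5) was fitted per library against length and GC content of the longest GENCODE M21 transcripts, using protein-coding genes averaging 1 FPKM or more, and its trend was divided out of FPKM. Other alternatives changed the pseudocount, filter, scaling, prior or library weights, added a replicate block, or left out each library.

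Named genes are the 10 chosen by symbol and, per list, the 4 of smallest p plus any that passed; others are marked where they appear. The members and lists were chosen with earlier results of these data known, and lists have no test of their own. Shared 31-base words were counted in either orientation over all GENCODE M21 transcripts. For a gene with several RefSeq windows, the one nearest the GENCODE start was used.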

Additional observations from a re-analysis of the deposited data

How the results depend on the processing

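Over all genes 175 were higher and 67 lower; with 1 library left out these counts ran from 14 to 498 and from 3 to 357. They were 116 and 34 with no filter, 308 and 359 with the length and GC correction, 603 and 790 when on replicate 1 was also left out, and 1098 and 784 with library weights (computed gene by gene after the default form had not converged, a choice made after seeing the data). Of the 10 receptor and adaptor genes 0 were called, 0 to 2 with 1 library left out, and 2 (Tlr1 and Ticam2) under each of the last 3 settings. Their median of -0.25 ran from -0.36 to -0.09 with 1 library left out. The pathway lists held 7 calls, 2 to 16 with 1 library left out, 4 with no filter, 12 with the correction, 19 when on replicate 1 was also left out and 18 with weights. The cause was not tested. Tlr1, Tlr6, Myd88, Tirap and Ticam2 kept their direction under all 17 alternatives. Signs that turned were those of Ticam1 with upper-quartile scaling (0.0072), of Tlr4 (0.074), Cd14 (-0.16) and Ly96 (-0.25) with weights, of Tlr2 (-0.0037), Cd14 (-0.036) and Ly96 (-0.31) with the correction, and of Cd14 (-0.17), Ly96 (-0.27), Ticam1 (0.072) and Traf3 (0.0067) when on replicate 1 was also left out. With 1 library left out, Tlr2 ran from -0.11 to 0.19, Tlr4 from -0.62 to 0.028, Cd14 from -0.038 to 0.44, Ly96 from -0.15 to 0.16 and Ticam1 from -0.13 to 0.067. Same-numbered libraries did not deviate together (correlations of -0.073, -0.020 and -0.0039) and share only a number; with the replicate number as a block 133 genes were higher and 46 lower, 0 of the 10 genes passed (Tlr1: limma, adjusted p = 0.13), and Cd36 did not pass (limma, adjusted p = 0.11). Counting error was small beside the spread between on libraries, which limits these comparisons.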
